A study of Sus scrofa with 15 samples.

Results

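The nuclear genes for the subunits of oxidative phosphorylation were followed by complex in the testes of piglets on 5 diets. A gene was taken as a member by its symbol among the deposited rows. Symbols that start with NDUFA, NDUFB, NDUFC, NDUFS or NDUFV, other than the NDUFAF assembly factors, made up complex I, and the SDH genes made up complex II. CYC1 and the UQCR genes made up complex III, the genes from COX4 to COX8 complex IV, and the ATP5 genes complex V. This gave 66 genes of the 30476 rows in the table, of which 31 were in complex I, 3 in complex II, 6 in complex III, 13 in complex IV and 13 in complex V. All 66 passed the filter on low counts, so no member was lost to it.

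RNA was sequenced from the testes of 15 male Dutch Landrace Duroc piglets, killed on postnatal day 21, with 1 library for each piglet and 3 piglets in each diet group. All piglets suckled until postnatal day 2 and were then housed singly and fed from bowls. Sow piglets received bought sow milk, Milk piglets a cow's milk formula and Soy piglets a soy-based formula. M + E2 piglets received the milk formula with 17-beta-estradiol, aimed at 15 to 30 pmol/L in serum. That range was a target. The serum estradiol that the paper measured in this group was above it and above that of every other diet. M + G piglets received the milk formula with the isoflavone genistein at 84 mg/L of diet, a concentration that the sample labels give for serum. M + E2 and Sow differ in the base diet as well as in estradiol, and these cannot be told apart in that comparison, whereas M + E2 and Milk differ by estradiol. A Sow and a Soy library carry no number in the table, and they are called unnumbered here.

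Oxidative phosphorylation takes place in the inner mitochondrial membrane. Complex I takes electrons from NADH and complex II from succinate, complex III passes them to cytochrome c, and complex IV gives them to oxygen, while complex V uses the resulting proton gradient to make ATP. The subunits of complex II are all encoded in the nucleus, whereas the other complexes also hold subunits encoded by the mitochondrial genome. In Leydig cells of the testis, the first step of steroid synthesis takes place inside mitochondria.

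The libraries held 6097552 to 9488579 reads on genes (median 8198038), and the 66 members took 0.576% to 1.6% of these. The tests used 14 libraries, without Sow 2. Of the 105 pairs of libraries, 4 had a correlation across genes below 0.9, and Sow 2 was in each of them. These 4 pairs joined Sow 2 to libraries of other diets. With Sow unnumbered and Sow 3 it correlated at 0.973 and 0.969, which was above the 0.932 of Milk 2 with Milk 3. The study left out the same library. Sow 2 stood apart in the members as well. Its level was above both other Sow libraries for 62 of the 66 members, against 41.4% of all 15634 genes tested, and it was the highest of the 15 libraries for 59. Relative to the mean of the other Sow libraries its members were higher by a median of 0.76 on the log2 scale. Levels are given in CPM, reads of a gene scaled to a common library size by TMM. The labelled tissue was checked on markers: all 10 Sertoli cell markers had reads in every library. Of 10 Leydig cell markers listed, 7 were found by symbol, and all 7 had reads in every library. In whole tissue, fewer cells of a type and less RNA per cell cannot be told apart.

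Each complex was first described by its level per library. The level is the mean over its members of log2 CPM after each gene was centred on its mean over the 14 libraries, so that 0 is the average library and the units are log2. In all 5 complexes the mean level was highest in Sow, followed by Milk, Soy and M + G, and lowest in M + E2. For the 66 members together the level was 0.73 and 0.52 in Sow unnumbered and Sow 3, and 1.29 in Sow 2. It was 0.55, 0.30 and -0.31 in Milk 1, 2 and 3, and 0.58, -0.06 and -0.45 in Soy unnumbered, 2 and 3. It was -0.13, 0.03 and -0.27 in M + G 1, 2 and 3, and -0.62, -0.45 and -0.42 in M + E2 1, 2 and 3. The Sow libraries lay above the M + E2 and M + G libraries without overlap, but Milk and Soy each spanned most of the range. The standard deviation was 0.44 in Milk and 0.52 in Soy (n = 3 each), compared with 0.11 in M + E2 and 0.15 in M + G (n = 3 each). The neighbouring diets Milk, Soy and M + G therefore overlapped, and Soy 3 lay between M + E2 1 and M + E2 2.

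**Figure D1:**
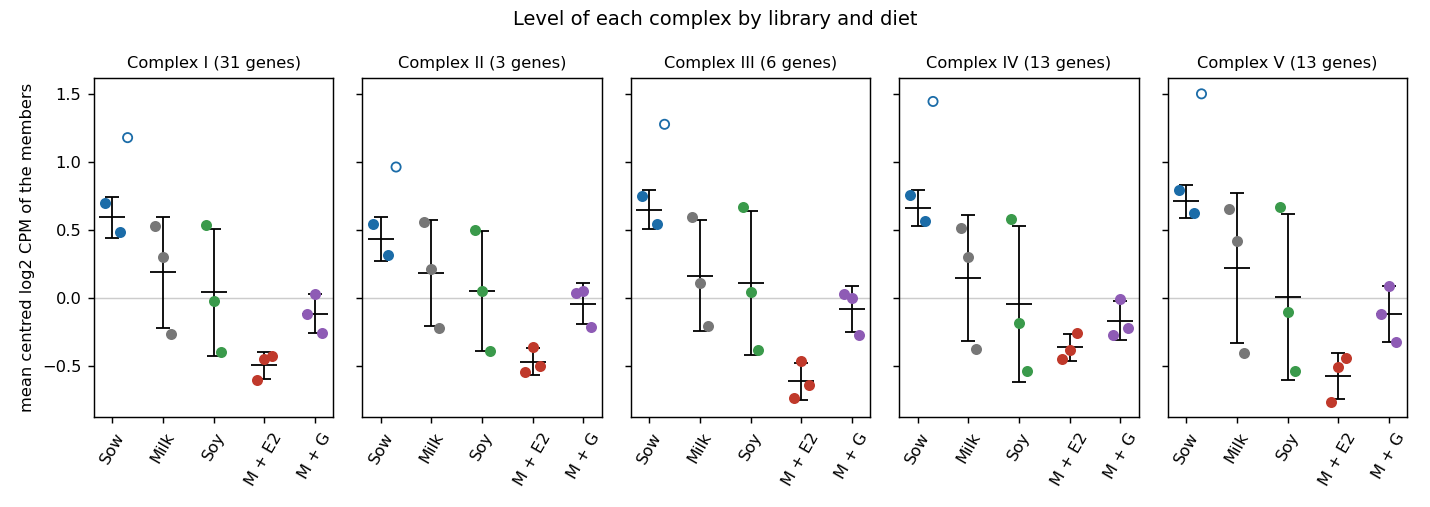
Level of each complex by library, as the mean centred log2 CPM of its members (y axis, log2 units), for the 5 diets (x axis). Points are libraries, the open circle is Sow 2, which is not in the mean, and bars show the mean ± SD of the 2 Sow or 3 other libraries; in each complex the M + E2 libraries sit below both Sow libraries, and the Milk and Soy libraries are spread widely.

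The complexes moved together. In Sow the mean level was 0.59 ± 0.15 for complex I, 0.43 ± 0.16 for complex II, 0.65 ± 0.15 for complex III, 0.66 ± 0.13 for complex IV and 0.71 ± 0.12 for complex V (SD, n = 2). In M + E2 it was -0.50 ± 0.10 for complex I, -0.47 ± 0.10 for complex II, -0.62 ± 0.14 for complex III, -0.37 ± 0.10 for complex IV and -0.58 ± 0.17 for complex V (SD, n = 3). Within a library the level of a complex departed little from that of all 66 members. The largest departures in the 14 libraries were -0.22 for complex III in M + E2 3 and -0.21 for complex II in Sow 3. Complex IV was above the level of all members in each of the 3 M + E2 libraries, by 0.17, 0.06 and 0.16, and complex V was below it in each, by -0.15, -0.06 and -0.02. No test was run on the levels of the complexes.

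Relative to Sow, the subunit genes were lower in M + E2 in every complex. With TMM scaling all 66 members had a lower fitted level in M + E2 (64 with total counts), with a median log2 fold change of -1.16. Over all 15634 genes tested 49.5% were lower and the median was 0.01. In edgeR's quasi-likelihood F test, with Benjamini-Hochberg adjustment over all genes tested, 28 members fell at an adjusted p of at most 0.05 and a change of at least 2-fold. Over all genes, 3.56% were called lower by the same thresholds. A further 6 members passed the adjusted p with a smaller change, which makes 34 (5.6% of all genes were lower by this rule). At an unadjusted p of 0.05, 55 members were lower, against 19.2% of all genes. For 62 members every M + E2 library was below both Sow libraries, against 31.9% of all genes. With Sow 2 added, 62 members had all 3 Sow libraries above every M + E2 library, against 30.2% of all genes. The adjusted p-values of the 28 members lay between 0.0269 and 0.0471 (edgeR's quasi-likelihood test). The call rested on single libraries, and no member was called without M + E2 1, M + E2 2, M + E2 3 or Soy 2, of which Soy 2 enters only through the shared estimate of the spread. The calls over all genes dropped from 781 to between 6 and 10 in these fits. Without M + G 1, 2 or 3, 4, 14 and 3 members were called, with 45, 301 and 38 genes over all. Without either Sow library, with Sow 2 put in its place, 47 members were called, with 2891 genes over all without Sow unnumbered and 3324 without Sow 3. All 66 members stayed lower in these fits, except NDUFA10 at 0.024 without M + E2 3 and NDUFS8 at 0.23 without Sow unnumbered, both on the log2 scale. With total counts in place of TMM, NDUFA10 and ATP5F1D turned positive (0.18 and 0.036), and none of these 3 genes had been called.

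**Figure D2:**
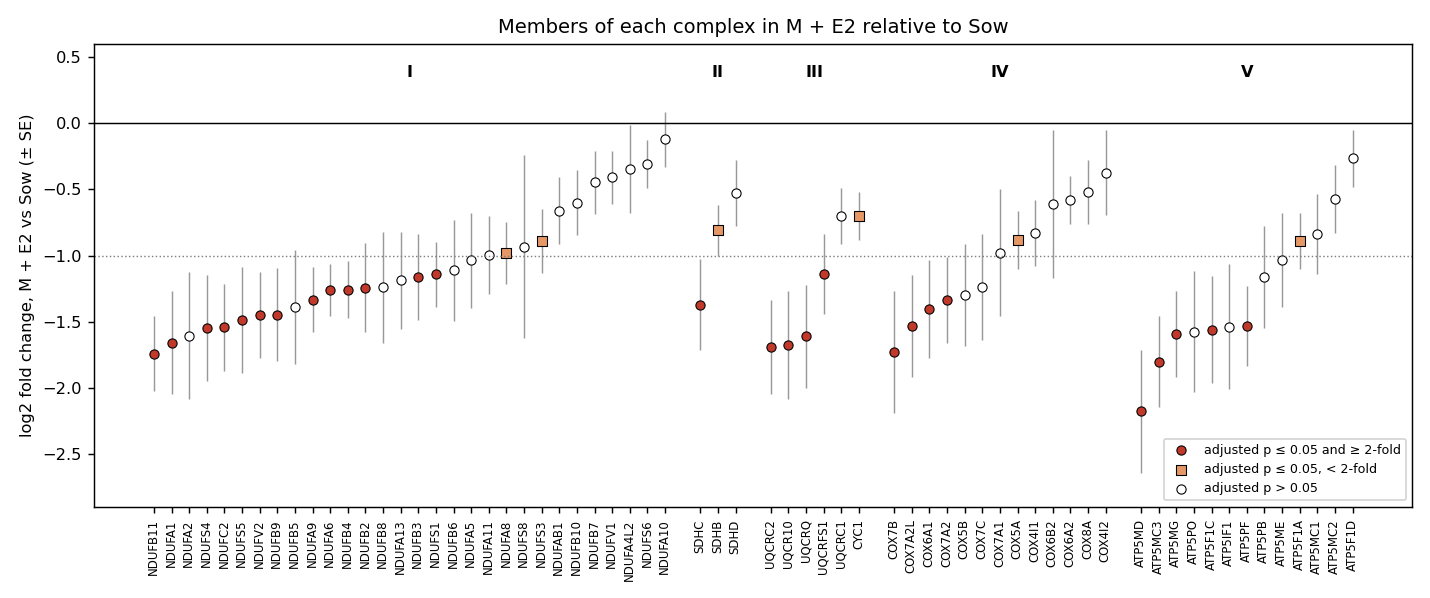
Log2 fold change in M + E2 relative to Sow (y axis, ± SE) for 65 of the 66 members (x axis), ordered by change within complexes I to V. The dotted line marks a 2-fold decrease, filled circles passed both thresholds in edgeR's quasi-likelihood test, squares passed the adjusted p alone and open circles did not pass it; every point is below 0, from -2.18 for ATP5MD to -0.12 for NDUFA10, which like ATP5F1D turns positive with total counts in place of TMM.

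In complex I, 14 of 31 members passed both thresholds and 2 more passed the adjusted p alone, with a median log2 fold change of -1.17. NDUFA6, an accessory subunit that holds the mitochondrial acyl carrier protein in the complex, had the smallest p of the 66 members. It lies on chromosome 5 of Sscrofa11.1, at 6562074 to 6567321 in RefSeq. Its level was 47.0 and 50.8 CPM in Sow unnumbered and Sow 3 (65.5 in Sow 2), 45.0, 34.7 and 32.0 in Milk 1 to 3, and 49.2, 44.8 and 35.1 in Soy unnumbered, 2 and 3. It was 29.5, 27.8 and 24.1 CPM in M + G 1 to 3 and 23.5, 19.8 and 17.9 in M + E2 1 to 3. The M + E2 libraries were the lowest of the 15, below all M + G libraries, and Soy overlapped Sow. NDUFA6 fell 2.4-fold in M + E2 relative to Sow (log2 fold change -1.26 ± 0.20 SE, edgeR quasi-likelihood adjusted p = 0.0269, n = 2 Sow and 3 M + E2).

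The iron-sulfur and flavin subunits that carry the electrons of complex I form its core. NDUFV2 fell from 179 ± 21.0 CPM in Sow to 65.4 ± 4.13 in M + E2, and NDUFS1, which carries several of the iron-sulfur clusters, from 208 ± 21.0 to 94.0 ± 9.88. NDUFS3 fell 1.86-fold, by the adjusted p alone. NDUFV1, which binds NADH, did not pass, at 63.5 ± 3.89 CPM in Sow and 47.9 ± 5.10 in M + E2 (SD, n = 2 and 3). NDUFS8 had under 2 CPM in every library and a standard error of 0.69 on the log2 scale, so a change of the size seen in the other core genes was not detectable at this depth.

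Several other members placed in complex I by symbol did not pass in M + E2 relative to Sow. NDUFA10 had the largest p of complex I, at 143 and 139 CPM in Sow unnumbered and Sow 3, 138, 152 and 99.2 in M + E2 1 to 3, 168, 121 and 167 in Milk 1 to 3, and 187, 158 and 167 in M + G 1 to 3. Sow and M + E2 overlapped, with 1 M + E2 library above both Sow libraries, while all M + G libraries lay above Sow and M + E2. NDUFA4L2, a paralog of NDUFA4 known for its induction by hypoxia, was at 6.79 ± 0.148 CPM in Sow and 5.39 ± 1.88 in M + E2. NDUFAB1, the acyl carrier protein that NDUFA6 holds, was at 75.6 ± 10.9 and 47.8 ± 6.56 CPM (edgeR quasi-likelihood adjusted p = 0.0906), and these groups did not overlap. At the other end NDUFB11, on the X chromosome (41770929 to 41773879), had the largest change in complex I and was picked for it after the values were seen. It was at 122 and 103 CPM in Sow unnumbered and Sow 3 and at 35.9, 35.6 and 29.5 in M + E2 1 to 3, below every library of the other diets, the lowest of which was M + G 3 at 53.9.

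Of the 3 complex II members, 1 fell by at least 2-fold and 1 more passed the adjusted p alone, with a median of -0.81. SDHC, a membrane anchor, was at 571 and 468 CPM in Sow unnumbered and Sow 3 (953 in Sow 2), 187, 210.1 and 204 in M + E2 1 to 3, and 351, 357 and 244 in M + G 1 to 3. It was at 546, 393 and 278 CPM in Milk 1 to 3 and at 555, 368 and 219 in Soy unnumbered, 2 and 3. All M + E2 libraries lay below the other 11 tested, while Milk and Soy ran from the level of Sow down to near that of M + E2. The fall of SDHC was 2.59-fold (log2 fold change -1.37 ± 0.34 SE, edgeR quasi-likelihood adjusted p = 0.0406). SDHB, the iron-sulfur subunit, fell 1.75-fold, from 164 ± 17.9 to 93.5 ± 8.23 CPM. SDHD, the other anchor, was at 85.2 ± 7.29 CPM in Sow and 59.1 ± 4.73 in M + E2 and did not pass, although these groups did not overlap.

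In complex III, 4 of 6 members fell by at least 2-fold and 1 more passed the adjusted p alone, with a median of -1.38. UQCRC2, a core protein of the complex, was at 363 and 297 CPM in Sow unnumbered and Sow 3 (595 in Sow 2), 242, 188 and 109 in Milk 1 to 3 and 247, 125 and 104 in Soy unnumbered, 2 and 3. It was at 154, 138 and 109 CPM in M + G 1 to 3 and 98.0, 88.3 and 119.9 in M + E2 1 to 3. Both Sow libraries were above the other 12, with M + E2 overlapping M + G, Milk and Soy at their lower ends. UQCRC2 fell 3.23-fold in M + E2 (log2 fold change -1.69 ± 0.36 SE, edgeR quasi-likelihood adjusted p = 0.0374). The Rieske iron-sulfur protein gene UQCRFS1 fell 2.21-fold, and the small accessory subunits UQCR10 and UQCRQ, named after their values were seen, fell 3.2-fold and 3.06-fold. CYC1, cytochrome c1, fell by the adjusted p alone, from 161 ± 18.4 to 99.0 ± 15.4 CPM. UQCRC1, the partner of UQCRC2, had the largest p of the complex, at 266 ± 14.2 CPM in Sow and 164 ± 27.9 in M + E2 (edgeR quasi-likelihood adjusted p = 0.0542).

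In complex IV, 4 of 13 members passed both thresholds and 1 more passed the adjusted p alone, with a median of -0.98. COX7A2, the isoform found in most tissues, was at 187 and 159 CPM in Sow unnumbered and Sow 3 (296 in Sow 2) and 58.6, 71.3 and 75.8 in M + E2 1 to 3. It was at 157, 139.6 and 72.8 CPM in Milk 1 to 3, 168, 101 and 74.6 in Soy unnumbered, 2 and 3, and 90.3, 103 and 85.7 in M + G 1 to 3. M + E2 was below Sow and M + G, and overlapped Milk 3 and Soy 3. Its fall in M + E2 was 2.52-fold (log2 fold change -1.33 ± 0.33 SE, edgeR quasi-likelihood adjusted p = 0.0402). COX6A1 fell 2.65-fold, and COX7A2L, a relative of COX7A2 that helps to join complexes III and IV, fell 2.89-fold.

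The isoforms of complex IV that mark particular tissues or conditions did not pass. COX6A2 and COX7A1, the heart and muscle forms, were at 26.3 ± 0.0228 and 12.2 ± 1.52 CPM in Sow and at 17.7 ± 2.37 and 6.13 ± 0.867 in M + E2 (SD, n = 2 and 3). COX4I2, an alternative to COX4I1 in lung and under low oxygen, was at 28.2 ± 4.75 and 21.8 ± 3.04 CPM, and COX4I1 at 215 ± 26.2 and 121 ± 4.9. COX6B2, a testis form of COX6B known from sperm, was near the limit of counting, at 1.57 and 1.6 CPM in Sow unnumbered and Sow 3 and at 1.31, 0.633 and 1.16 in M + E2 1 to 3. COX5A fell 1.84-fold by the adjusted p alone. COX5B had a change of 2.46-fold and COX8A of 1.43-fold, neither of which passed (edgeR quasi-likelihood adjusted p = 0.0531 and 0.147).

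Complex V had the lowest median, -1.53, and 5 of its 13 members passed both thresholds, with 1 more passing the adjusted p alone. ATP5MC3, 1 of the 3 genes that encode the c subunit of the rotating ring, was at 503 and 401 CPM in Sow unnumbered and Sow 3 (676 in Sow 2) and at 117, 132 and 140.0 in M + E2 1 to 3. It was at 385, 242 and 198 CPM in Milk 1 to 3, 404, 257 and 159.8 in Soy unnumbered, 2 and 3, and 216, 232 and 161 in M + G 1 to 3. All M + E2 libraries were below the other 11 tested. ATP5MC3 fell 3.49-fold (log2 fold change -1.80 ± 0.34 SE, edgeR quasi-likelihood adjusted p = 0.0343). ATP5MC1 and ATP5MC2, whose mature proteins are identical to that of ATP5MC3, had changes of 1.79-fold and 1.48-fold and did not pass.

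Other members of complex V changed by unlike amounts. ATP5F1B, the beta subunit of the catalytic head, was not among the members. ATP5F1A, the alpha subunit, fell by the adjusted p alone, from 739 ± 89.2 CPM in Sow to 399 ± 15.8 in M + E2. ATP5F1C, the gamma subunit that turns in the head, fell 2.95-fold, from 1026 ± 132 to 348 ± 53.2 CPM. ATP5F1D, the delta subunit, had the largest p, at 208 and 187 CPM in Sow unnumbered and Sow 3 and 140.0, 201 and 151 in M + E2 1 to 3, and these groups overlapped. ATP5IF1, the inhibitor that blocks the enzyme when it runs backwards, was at 306 ± 18.7 and 105 ± 23.6 CPM and did not pass (edgeR quasi-likelihood adjusted p = 0.0559). The largest change of all 66 members was that of ATP5MD, a small membrane subunit named for this after the values were seen. It was at 125 and 135 CPM in Sow unnumbered and Sow 3 (286 in Sow 2), and at 23.0, 22.5 and 40.3 in M + E2 1 to 3, and it fell 4.53-fold.

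Between the complexes the medians in M + E2 relative to Sow differed by 0.72 on the log2 scale, from -1.53 in complex V to -0.81 in complex II. From the lowest to the highest member, each complex spanned more than this. In complex I the members ranged from -1.74 to -0.12, and in complex V from -2.18 to -0.27. The lower and upper quartiles lay closer together than this gap in complex I (-1.42 and -0.91), complex II (-1.09 and -0.67) and complex V (-1.58 and -0.89). They were about as far apart in complex IV (-1.33 and -0.61) and farther apart in complex III (-1.66 and -0.81). The 22 members that were listed as core had a median of -0.89, with 8 called, and the other 44 members a median of -1.25, with 20 called. For complex IV the list held COX4I1, COX5A and COX5B, which are not its catalytic subunits. In complex V the 6 core genes had a median of -0.86 and the other 7 of -1.54. Of the 66 members, 10 were at least 3-fold lower in M + E2, of which 9 were called and NDUFA2 was not, and 11 differed by less than 1.5-fold. The members that were less than 1.5-fold lower came from complexes I, II, IV and V. The difference between core and other members was not tested.

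**Figure D3:**
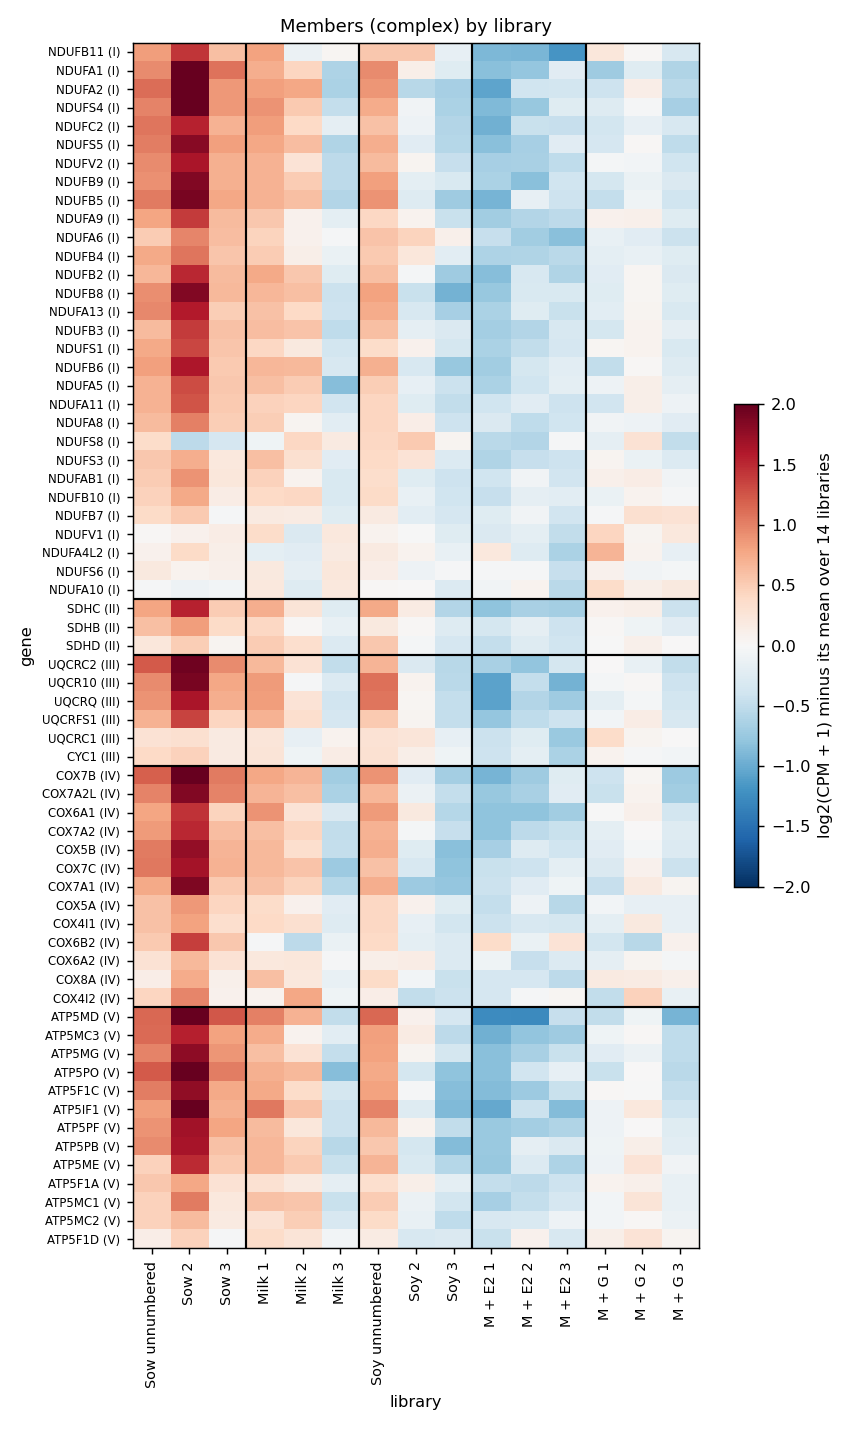
The same 65 members (rows, ordered by complex and by their change in M + E2 relative to Sow) in the 15 libraries (columns, grouped by diet). Colour is log2(CPM + 1) minus its mean over the 14 libraries without Sow 2, from blue (lower) to red (higher), with the scale ended at -2 and 2; Sow 2 is red in nearly all rows, and Milk 3 and Soy 3 are blue in most rows beside redder libraries of their own diets.

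The spread within a diet was shared by nearly all members. Milk 3 was the lowest of the 3 Milk libraries for 57 of the 66 members, against 38.1% of all genes, and Milk 1 the highest for 59. Soy 3 was the lowest of its diet for 63 members, against 38.8% of all genes, and Soy unnumbered the highest for 63. Among the M + E2 libraries the order was less uniform, with M + E2 1 the lowest for 44. Every M + E2 library was below the other 11 tested for 14 members (21.2%), of which 6 were in complex I, 1 in complex II, 3 in complex III, 1 in complex IV and 3 in complex V, against 3.01% of all genes. Both Sow libraries were above the other 12 for 20 members (30.3%), against 8.96% of all genes. This was the case for 9 members of complex I, none of complex II, 1 of complex III, 6 of complex IV and 4 of complex V.

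Relative to Milk, the comparison that differs by estradiol alone, 65 of the 66 members were lower in M + E2, with a median of -0.79. Over all genes 52.4% were lower, with a median of -0.03. The medians were -0.79 in complex I, -0.61 in complex II, -0.84 in complex III, -0.63 in complex IV and -0.85 in complex V. No member passed in edgeR's quasi-likelihood test, in which 0% of all genes were called lower. At an unadjusted p of 0.05, 47 members were lower, against 10.5% of all genes. Without Milk 1 that count was 15 members, without M + E2 1 it was 29, and with total counts in place of TMM it was 27. Over all genes, in either direction, 1392, 1554 and 3064 had such a p, against 2772 in the fit of 14 libraries. Both DESeq2's Wald test and edgeR's exact test called 2 members, with 122 and 92 genes over all. For 24 members the groups did not overlap (8.79% of all genes were lower in this way). COX6B2 was the exception to the direction, at 0.764, 0.248 and 0.627 CPM in Milk 1 to 3. Leaving out Milk 3, the lowest Milk library, raised the count of called members from 0 to 29, and that of all called genes from 0 to 1256.

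M + E2 was also below the other diets. Soy was higher than M + E2 in 64 of the 66 members (53.2% of all genes), by a median of 0.57, and by 0.03 over all genes. Only NDUFA6 passed and was higher in Soy (log2 fold change 1.08 ± 0.18 SE, edgeR quasi-likelihood adjusted p = 0.0376), while 0.122% of all genes were called higher. This call was lost without any of 8 libraries, which were Sow 3, Soy unnumbered, Soy 2, each M + E2 library, M + G 2 and M + G 3. It was also lost in a fit of only these groups, with total counts and with the replicate block, which leaves out Soy unnumbered and the Sow group and in which 48 members were higher and 18 lower, with 7 at an unadjusted p under 0.05. At an unadjusted p of 0.05, 28 members were higher in Soy (8.37% of all genes), and for 20 the groups did not overlap (10.3%). DESeq2's Wald test called 4 members and edgeR's exact test 3, with 143 and 203 genes over all. Without Soy unnumbered 49 members were higher and 17 lower, with 10 at an unadjusted p under 0.05, and without Soy 3 that last count was 46. Over all genes 1593 and 2589 had such a p in these fits and 1275 with the replicate block, against 2028 in the fit of 14 libraries. Relative to M + G, 65 members were lower in M + E2 (52.2% of all genes), with a median of -0.39. None passed in edgeR's quasi-likelihood test (0% of all genes), and 10 were lower at an unadjusted p of 0.05 (4.02%). That count lay between 4, without M + G 2, and 19, without Milk 3 or Soy unnumbered, when 1 library was left out. Over all genes these fits had 657, 1484 and 1201 at such a p, against 1096 in the fit of 14 libraries. DESeq2's Wald test and edgeR's exact test called none. For 36 members all M + E2 libraries were below all M + G libraries, against 10.9% of all genes.

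The other formula diets lay between Sow and M + E2. In M + G relative to Sow, 60 members were lower (48.6% of all genes), with a median of -0.75, compared with 0.02 over all genes. None passed in edgeR's quasi-likelihood test (0.0384% of all genes were called lower), and 38 were lower at an unadjusted p of 0.05 (13.7% of all genes). DESeq2's Wald test called 9 members and edgeR's exact test 17, with 330 and 955 genes over all. With Sow 2 added to the Sow group 30 members were called in M + G, while 33 were called if Sow 2 replaced Sow unnumbered and 40 if it replaced Sow 3. Over all genes 1585, 1304 and 2039 were called in these fits, against 9 without Sow 2. Without Milk 3, 1 member was called, of 70 genes. For 55 members the M + G libraries were all below both Sow libraries (28% of all genes). The medians were -0.74 in complex I, -0.59 in complex II, -0.82 in complex III, -0.76 in complex IV and -0.86 in complex V. The largest change in complex V was again that of ATP5MD, at 39.5, 52.7 and 29.0 CPM in M + G 1 to 3 (log2 fold change -1.68 ± 0.46 SE).

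In Soy relative to Sow, 65 members were lower (48.4% of all genes), with a median of -0.52, and none passed in edgeR's quasi-likelihood test (0.0128% of all genes were called lower). At an unadjusted p of 0.05, 13 were lower, against 7.46% of all genes. The count of members at such a p was 1 without Soy 3, 4 without Soy 2, 28 without Milk 3, 49 without Soy unnumbered, and 48 or 54 when Sow 2 replaced Sow unnumbered or Sow 3. Over all genes, in either direction, it was 830, 1617, 3459, 4751, and 4786 or 5593 in the same order. In the fit of 14 libraries it was 2344. In Milk relative to Sow, 59 were lower (49.8% of all genes), with a median of -0.42, and none passed (0.0128% of all genes), with 7 lower at an unadjusted p of 0.05 (5.99% of all genes). Here the count was 2 without Milk 2 or Milk 3, 18 without Milk 1, and 37 or 41 when Sow 2 replaced Sow unnumbered or Sow 3. Over all genes it was 1859 or 1558, 2699, and 3654 or 4473, against 1895 in the fit of 14 libraries. In both comparisons DESeq2's Wald test and edgeR's exact test called none. In both, 27 members did not overlap with Sow, which compares with 18.7% of all genes for Soy and 17.2% for Milk. The comparisons with Sow share the same Sow libraries, so the order of these medians is not independent evidence.

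Among the formula diets without estradiol the members differed less. Relative to Milk, 61 members were lower in M + G (51.4% of all genes), with a median of -0.36, and 52 in Soy (48.1%), with a median of -0.17. In both, edgeR's quasi-likelihood test, DESeq2's Wald test and edgeR's exact test called 0 members, and the first called 0% of all genes lower. At an unadjusted p of 0.05, 4 members were lower in M + G (1.22% of all genes) and 0 in Soy (1.07%). The groups did not overlap for 2 members in M + G (2.03% of all genes) and for 0 in Soy (2.17%). The direction in Soy relative to Milk rested on single libraries, since 26 members were lower and 40 higher without Milk 1, and 31 lower and 35 higher without Soy 3. Without Soy unnumbered 63 were lower, with 22 at an unadjusted p under 0.05 (1389 over all genes, against 381 in the fit of 14 libraries). In M + G relative to Milk the count at such a p was 28 without Milk 3 and 0 without Milk 1. Over all genes it was 3281 and 330, against 406 in the fit of 14 libraries. In Soy relative to M + G, 53 members were higher (55.2% of all genes), with a median of 0.22, and 0 passed in any of the 3 tests (0% of all genes were called higher), with 3 at an unadjusted p under 0.05 (1.48%). The groups did not overlap, with Soy higher, for 2 members (3.88%). The direction turned without Soy unnumbered, with 17 members higher and 49 lower, and with the replicate block, with 18 higher and 48 lower. In a test of any difference among the 5 diets, 0 of the 66 members passed in edgeR's quasi-likelihood test (0.064% of all genes passed), and 41 had an unadjusted p under 0.05 (18.1%). The count of those passing was 27 with all 3 Sow libraries, 23 without Milk 3 and 1 without Sow unnumbered, with Sow 2 in its place, while over all genes it rose from 10 to 1168, 1042 and 26.

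**Figure D4:**
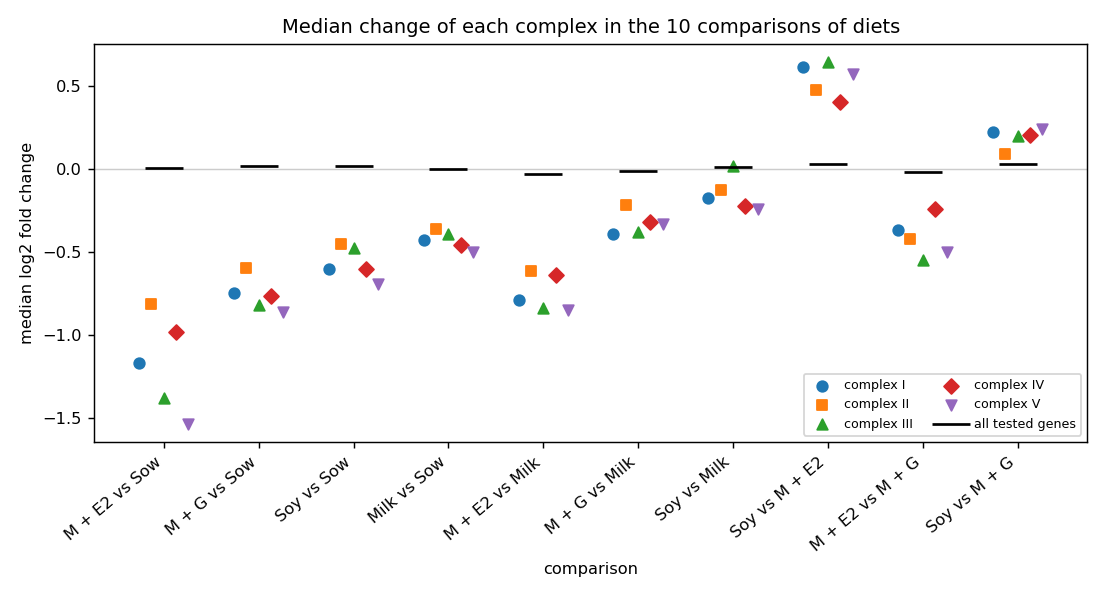
Median log2 fold change of each complex (symbols) and of all 15634 genes tested (bars) in the 10 comparisons of diets (x axis), from the fit of 14 libraries. The medians of the 5 complexes lie together below the bars in all comparisons with Sow and in those of M + E2 or M + G with Milk, and spread most in M + E2 relative to Sow, from -1.53 for complex V to -0.81 for complex II.

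Other genes of the pathway were counted from lists beside the members. Over all genes tested in M + E2 relative to Sow, 3.56% were called lower and 225 of 15634 were called higher. These shares stand beside the calls of the lists here and further below. In these lists, a gene said to have fallen or risen passed both thresholds. Of 14 assembly factors of complex I, all were lower in M + E2 relative to Sow, with a median of -0.74, and 0 were called by edgeR's quasi-likelihood test, with 9 at an unadjusted p under 0.05 and 3 called by each of DESeq2's Wald test and edgeR's exact test. Of 22 assembly factors of complexes II to V, 19 were lower and 1 fell, TMEM70 (log2 fold change -1.32 ± 0.25 SE), which helps to build complex V. Of the 4 genes for cytochrome c and the carriers of adenine nucleotides and phosphate, all passed the adjusted p and 2 fell by at least 2-fold, CYCS (-1.39 ± 0.35 SE) and the phosphate carrier SLC25A3 (-1.07 ± 0.20 SE). In the citric acid cycle 16 of 17 genes were lower and 4 fell, among them PDHB (-1.03 ± 0.20 SE), of pyruvate dehydrogenase, and SUCLG1 (-1.44 ± 0.33 SE), of succinyl-CoA ligase.

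The subunits encoded by the mitochondrial genome were lower as well. Of 13 such genes 13 were lower in M + E2 relative to Sow, with a median of -0.97, and 3 fell, among them ATP8 (log2 fold change -1.56 ± 0.36 SE) and ND3 (-1.26 ± 0.31 SE). Their level did not follow the nuclear members in every library. In Soy 2 and Soy 3 it was 0.71 and 0.20, while the nuclear members were at -0.06 and -0.45, and in Milk 2 it was -0.52, with the nuclear members at 0.30. Of 11 general mitochondrial proteins 10 were lower and 3 fell, among them the outer membrane channel VDAC2 (-1.18 ± 0.24 SE). The 15 regulators of mitochondrial biogenesis did not share the direction. Only 6 were lower, their median was 0.19, and 1 was called, PPRC1, a coactivator of the PGC-1 family, which rose (1.13 ± 0.28 SE).

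**Figure D5:**
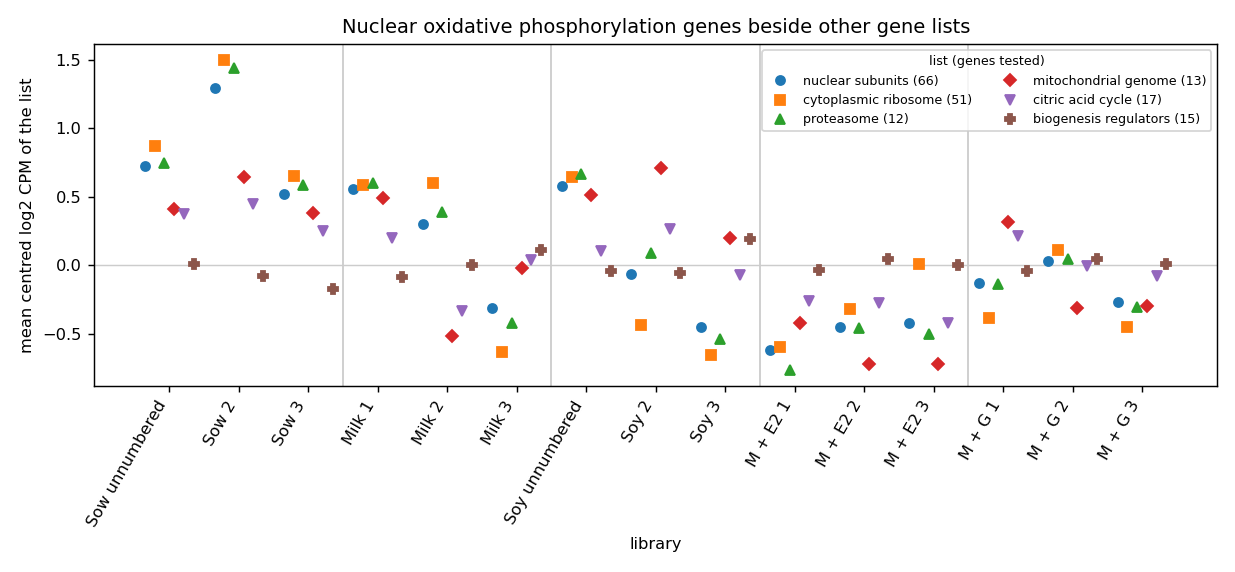
Level of the nuclear subunit genes and of 5 other gene lists (symbols, number of genes tested in parentheses) in each library (x axis), as mean centred log2 CPM (y axis), with symbols set apart sideways within a library. The cytoplasmic ribosome and the proteasome are high in Sow, Milk 1 and Soy unnumbered and low in Milk 3 and Soy 3, as the nuclear subunits are, while the biogenesis regulators stay between -0.17 and 0.19.

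Genes outside the mitochondrion differed in the same direction. All 51 cytoplasmic ribosomal protein genes tested were lower in M + E2 relative to Sow with TMM scaling, with a median of -1.04. Of the 51, 2 fell, RPS15A and RPS20, which is near the 3.56% of all genes called lower. Their count of calls moved with the libraries, to 35 with all 3 Sow libraries, 22 without Milk 3, 21 without Soy unnumbered, 7 without Soy 3, and 35 or 39 when Sow 2 replaced Sow unnumbered or Sow 3. Over all genes the calls were 2767, 1533, 1326, 1208, and 2891 or 3324 in the same order, against 781 in the fit of 14 libraries. All 12 proteasome genes tested were lower, with a median of -1.18, and 7 fell, among them PSMB1 (log2 fold change -1.27 ± 0.27 SE), with 12 called with all 3 Sow libraries. By library the level of the proteasome genes was 0.75 and 0.59 in Sow unnumbered and Sow 3, -0.42 in Milk 3, -0.54 in Soy 3 and -0.77, -0.46 and -0.50 in M + E2 1 to 3. The ribosomal protein genes were at 0.87 and 0.65 in Sow unnumbered and Sow 3 and at -0.64 and -0.66 in Milk 3 and Soy 3, but at -0.59, -0.32 and 0.01 in M + E2 1 to 3. The part of these genes in the result was not tested. As for the members, 0 genes of these lists and of those of the mitochondrion were called when any single M + E2 library or Soy 2 was left out. The ribosomal and proteasome genes also lost all calls without M + G 1 or M + G 3.

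Cell type markers were set beside the members. Of the 7 Leydig cell markers 6 were lower in M + E2 relative to Sow, with a median of -0.65, and STAR, which brings cholesterol into mitochondria, fell (log2 fold change -1.53 ± 0.41 SE). Their summed level was 15168 to 16668 CPM in M + E2, 24963 to 26115 in the 3 Sow libraries, 12533 to 28099 in Milk, 22644 to 30577 in Soy and 20665 to 25198 in M + G. Milk 2, with the lowest Leydig sum, was at 0.30 in the members, and Soy 3, the lowest Soy library in the members, was at 22644 CPM. Of the 10 Sertoli cell markers 7 were higher and 0 passed in edgeR's quasi-likelihood test. The markers summed to 3685 to 3871 CPM in M + E2, 2531 to 3002 in Sow, 1643 to 3104 in Milk, 2046 to 2779 in Soy and 2187 to 3874 in M + G. In the lists for germ, peritubular myoid, endothelial, epithelial, fat and skeletal muscle cells and for macrophages and T cells 0 genes passed, with medians from -1.01 in epithelium to 0.72 in endothelium. Of the 4 erythroid genes 1 rose, SLC4A1 (3.51 ± 0.97 SE). The peritubular myoid sum was 4180 CPM in Soy 3, 3244 in Milk 2 and 2428 in M + G 2, against 296 to 1022 in the other 12 libraries. Of the listed markers found by symbol, the only one at 0 in every library was CD3G, of T cells. The part of the cell makeup in the results was not tested.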

How the data were processed

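RNA from 15 testes was sequenced as short single-end reads. The authors mapped them with CLC Genomics Workbench to a curated pig gene library and mapped the remainder to the Ensembl pig genome, and deposited unnormalized counts per gene for 30476 genes, of which 16446 carried a symbol. Whether the reads of the first mapping are in the counts is not given in the sources used here, and short reads of subunit genes with processed pseudogenes or close paralogs may be split between copies. The counts were tested in edgeR 4.0.16 (R 4.3.3) with TMM scaling, filterByExpr at a minimum count of 10 and a quasi-likelihood F test. All 5 diets were fitted together over 14 libraries, with Benjamini-Hochberg adjustment over 15634 genes. A gene was called at an adjusted p of at most 0.05 and a change of at least 2-fold. Log2 CPM used a prior count of 1. Since nothing but the labels tells which libraries are separate piglets, p-values measure the spread among these samples. The step was tested on simulated data.

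The members, the other lists and the tests were chosen with earlier results of these data known. Members named with values were the subunits listed as core, listed isoforms and inhibitors, and in each complex the genes with the smallest and largest p, with at most 2 genes from each other list. The values of 1 member are not reported here, although it is in the counts and medians. Alternatives were DESeq2 1.42.0, edgeR's exact test, fits of 2 groups, other filters and scalings, all 3 Sow libraries, each library left out, and the replicate number as a block. When a Sow library was left out, Sow 2 took its place. Deviations from the group means of same-numbered libraries correlated at 0.231, 0.493 and 0.414 between Milk and M + G. They correlated at -0.0588, -0.0901 and -0.324 between Milk and M + E2, and at 0.119, 0.0639 and -0.127 between M + E2 and M + G. Libraries with unlike numbers were not compared, so whether the numbers mark pairs cannot be told from these values. Positions are from RefSeq, Sscrofa11.1.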

Additional observations from a re-analysis of the deposited data

How the results depend on the processing

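The direction of the medians of the 5 complexes relative to Sow did not change in any alternative in which they were taken, while the counts of called members did. The medians were not taken with DESeq2's Wald test or edgeR's exact test, and the replicate block leaves out the Sow group. With all 3 Sow libraries 44 members were called in M + E2 and 30 in M + G relative to Sow, and 27 for any difference among diets, and the medians of complex IV became -1.48 and -1.16. With DESeq2's Wald test 9 were called in M + G relative to Sow, 2 in M + E2 relative to Milk and 4 in Soy relative to M + E2, and with edgeR's exact test 17, 2 and 3. In fits of only the groups compared, 16 were called in M + G relative to Sow and 0 in Soy relative to M + E2. Without a filter 2 were called in Soy relative to M + E2 and 2 for any difference. With the replicate block 0 were called in Soy relative to M + E2, and it changed no other count of called members among the groups with numbers in common, but it turned the direction of most members in Soy relative to M + G (48 lower), as leaving out Soy unnumbered did (49 lower). In Soy relative to Milk most members turned without Milk 1 (40 higher) or Soy 3 (35 higher). With total counts in place of TMM the median of all genes in M + E2 relative to Sow was 0.31, that of complex II was -0.51, ATP5F1D and NDUFA10 were at 0.036 and 0.18, and 0 members were called in Soy relative to M + E2. Leaving out 1 library at a time gave 0 to 47 called members in M + E2 and 0 to 40 in M + G relative to Sow, 0 to 29 in M + E2 relative to Milk, 0 to 2 in Soy relative to M + E2 and 0 to 23 for any difference. It gave NDUFS8 between -1.75 and 0.23 (without Sow unnumbered) and NDUFA10 between -0.25 and 0.024 (without M + E2 3). The medians in M + E2 relative to Sow then ranged from -1.53 to -1.10 in complex I, -1.81 to -1.27 in complex III, -1.67 to -0.89 in complex IV and -2.01 to -1.43 in complex V. In M + G relative to Sow they ranged from -1.10 to -0.74, -1.29 to -0.70, -1.33 to -0.74 and -1.42 to -0.75 in the same order. In Soy relative to Sow the ranges were -1.001 to -0.36, -0.95 to -0.18, -1.06 to -0.43 and -1.18 to -0.44, and in Milk relative to Sow -0.76 to -0.21, -0.84 to -0.22, -0.92 to -0.22 and -1.02 to -0.21. Complex II ranged from -0.97 to -0.78 in M + E2, -0.78 to -0.53 in M + G, -0.72 to -0.17 in Soy and -0.57 to -0.15 in Milk. Depth limited NDUFS8 and COX6B2, both at a few CPM or less.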

Other observations

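Genes of 5 further subunits were in the counts by identifier only and were named through a table of gene names, so they were outside the rule on symbols. All 5 had every M + E2 library below both Sow libraries. NDUFB1, an accessory subunit of complex I, and UQCR11, a small subunit of complex III, fell in M + E2 relative to Sow, with log2 fold changes of -1.59 ± 0.36 SE and -1.29 ± 0.30 SE (edgeR quasi-likelihood adjusted p = 0.0374 and 0.0381). SDHA, the flavoprotein of complex II, was at -0.42 ± 0.28 SE and did not pass (edgeR quasi-likelihood adjusted p = 0.305). NDUFA4, which sits in complex IV despite its name, was at -0.98 ± 0.33 SE, and NDUFA7 of complex I at -0.93 ± 0.28 SE, and neither passed. With these genes 30 of 71 were called.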
